A study of Capra hircus with 2 samples.

Results

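miR-143 and miR-145 are microRNAs (miRNAs), short RNAs that pair with messenger RNAs and repress them, and they come from neighbouring hairpin precursors. They were examined in goat testicular cells by small RNA sequencing. Every entry of the deposited tables whose miRNA name, without species prefix, copy number and arm ending, read miR-143 or miR-145 was taken as a member. This gave 16 of 2331 named entries in the CD49f-positive table and 9 of 2145 in the CD49f-negative table. Summed by name and arm, they made up 4 of 1808 miRNA arms: the 5p and the 3p arm of each hairpin, named for the end of the hairpin from which the mature RNA is cut.

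The cells came from 3 testes of 3 Saanen dairy goats aged 5 months. Per the labels' protocols, tissue was digested with enzymes, cells were plated overnight so that attaching Sertoli and myoid cells could be removed, and the unattached cells were sorted with magnetic beads. CD49f is integrin alpha-6, which spermatogonial stem cells carry on their surface along with other cells; the CD49f-positive fraction has it and the CD49f-negative fraction lacks it. Each group had 1 library here, so differences are between 2 libraries, without replicates and without p-values. Whether the goats were pooled was not stated. Named miRNAs had 8196507 reads in the CD49f-positive library, against 3064462 in the CD49f-negative one.

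In mouse and human, miR-143 and miR-145 are made from a shared primary transcript found in smooth muscle and its mesenchymal relatives and is driven there by serum response factor and myocardin. Both help vascular smooth muscle keep its contractile state, and miR-145 represses KLF4, a transcription factor that opposes it. Among the cells of the testis that are like smooth muscle are the peritubular myoid cells around the seminiferous tubules. Myoid cells are one of the types that the plating step was meant to remove. In such sorted bulk cells, a lower share of a miRNA can come from fewer cells of a type or from less RNA per cell, and these cannot be told apart.

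The 2 hairpins are shown because at least 99.6% of the reads of each arm in either library lie on them. Capitals mark the hairpin's own bases in the stretches covered by the sequences that the CD49f-positive table lists for each arm, 5p first. Both are on the plus strand of goat chromosome 7, in the authors' coordinates, whose genome build is not given in the sources used here.
miR-143 hairpin, chr7:57057743-57057843: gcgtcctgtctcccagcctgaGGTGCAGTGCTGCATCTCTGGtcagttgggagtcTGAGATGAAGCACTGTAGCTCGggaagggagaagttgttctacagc
miR-145 hairpin, chr7:57059152-57059239: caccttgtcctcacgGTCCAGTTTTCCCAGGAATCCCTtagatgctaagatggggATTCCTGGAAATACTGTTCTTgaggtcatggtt

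The hairpins are 101 and 88 bases long and 1308 bases apart. In the RefSeq gene table of goat assembly ARS1.2, MIR145 and MIR143 are also direct neighbours, between the protein-coding genes CSNK1A1 and IL17B. The miR-145 hairpin is identical to that of cattle in miRBase, the miRNA catalogue. The miR-143 hairpin differs from it by G97A, with the cattle base first and positions counted from the 5′ end of the hairpin, outside both arms. The deposited folding energies were -50.8 kcal/mol for miR-143 and -41.8 kcal/mol for miR-145, against a median of -38.45 kcal/mol over the 386 known hairpins of the CD49f-positive table. In the deposited fold 18 of 21 bases of miR-143-5p and 19 of 22 of miR-143-3p were paired, and 19 of 23 of miR-145-5p and 17 of 21 of miR-145-3p. Most bases of every arm were thus paired, and the stretch between the arms was 13 bases in miR-143 and 17 in miR-145.

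The tables list 1 sequence per entry, per the column description the read with the highest mapped score. These are shown, with the seed (bases 2 to 8, the part that pairs with targets) in capitals, because those of miR-143-3p and miR-145-5p differ in their ends between the libraries.
miR-143-3p, CD49f-positive: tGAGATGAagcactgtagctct
miR-143-3p, CD49f-negative: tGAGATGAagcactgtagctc
miR-143-5p, both libraries: gGTGCAGTgctgcatctctgg
miR-145-5p, CD49f-positive: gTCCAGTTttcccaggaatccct
miR-145-5p, CD49f-negative: gTCCAGTTttcccaggaatcc
miR-145-3p, both libraries: aTTCCTGGaaatactgttctt
miR-145-3p, pig name to which it was matched: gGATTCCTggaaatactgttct

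The 4 seeds differed from each other, and none was found at bases 2 to 8 of the main listed sequence of any other of the 298 arms with at least 100 reads over both libraries. The listed sequences of each arm began at the same base in both libraries, so their seeds were the same. The listed miR-145-3p sequence began 2 bases inside the pig miR-145-3p of miRBase, which gives this sequence the seed TTCCTGG in place of GATTCCT. Its copies made up 32.9% of the arm's reads in the CD49f-positive library, against 25.8% in the CD49f-negative one. Where the other reads of the arm began is not listed, so the seed of the arm as a whole was not measured.

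miR-143-3p was far more abundant than the other 3 arms in both libraries. It had 1813387 reads in CD49f-positive cells, against 564567 in CD49f-negative cells, and it was the second most abundant of all arms in each. Its share of named miRNA reads was 22.1% in CD49f-positive cells (95% interval 22.1 to 22.2) and 18.4% in CD49f-negative cells (18.4 to 18.5). Intervals are exact Clopper-Pearson intervals. They cover only the error of counting reads, because each group had 1 library. PCR copies were not told apart by molecular identifiers, so a molecule may be counted more than once and the intervals may be too narrow.

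miR-143-5p, the other strand of the same hairpin, had 1978 reads or 0.0241% in CD49f-positive cells, against 1255 reads or 0.0410% in CD49f-negative cells. It ranked 85 in the CD49f-positive and 83 in the CD49f-negative library. The arm was thus far below its partner in both libraries, though not scarce among the 1808 arms.

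miR-145-5p, the arm to which the repression of KLF4 is ascribed, had 10050 reads in CD49f-positive cells, against 8864 in CD49f-negative cells. These were 0.123% (0.120 to 0.125) of reads in the CD49f-positive library, against 0.289% (0.283 to 0.295) in the CD49f-negative one, and the arm ranked 50 in the CD49f-positive and 28 in the CD49f-negative library. miR-145-3p had 22939 reads or 0.280% (0.276 to 0.284) in CD49f-positive cells, against 5808 reads or 0.190% (0.185 to 0.194) in CD49f-negative cells. It ranked 27 in the CD49f-positive and 43 in the CD49f-negative library, so the order of both miR-145 arms was turned between them. In CD49f-positive cells the order of levels was miR-143-3p, miR-145-3p, miR-145-5p and miR-143-5p, while in CD49f-negative cells miR-145-5p stood above miR-145-3p, and no neighbours in either order had overlapping counting intervals.

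**Figure D1:**
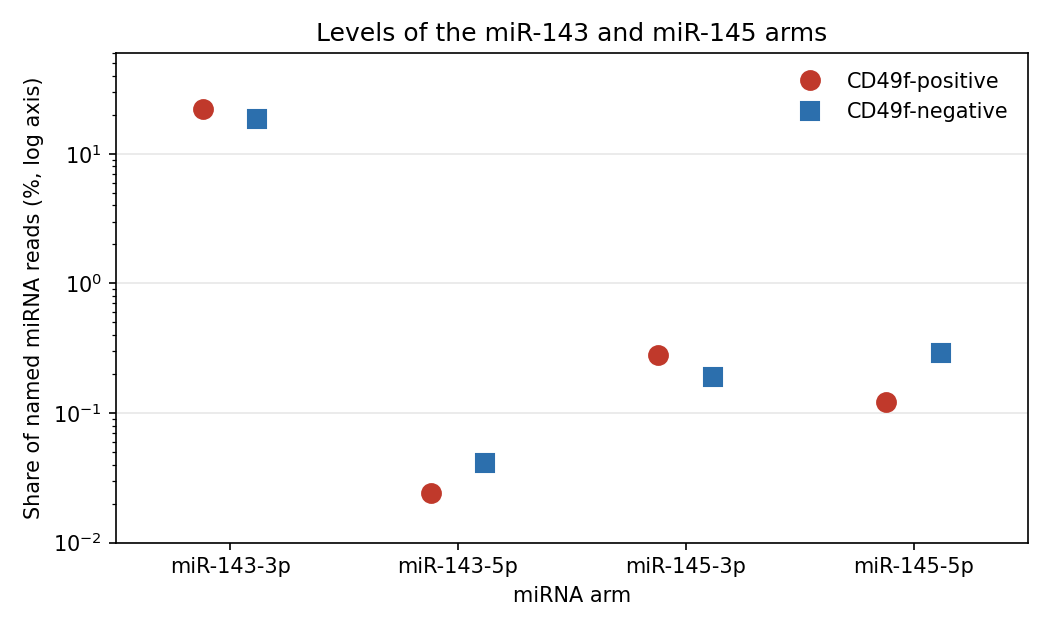
Share of named miRNA reads (percent, log axis) of the 4 arms in the CD49f-positive library (circles, left) and the CD49f-negative library (squares, right); each point is 1 library, and counting intervals are smaller than the symbols. miR-143-3p lies highest, at 22.1% in CD49f-positive and 18.4% in CD49f-negative cells. The miR-145 arms change order, with miR-145-3p the higher in CD49f-positive cells (0.280% over 0.123%) and the lower in CD49f-negative cells (0.190% under 0.289%).

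The 3p arms of both hairpins had the higher share in CD49f-positive cells and the 5p arms the lower share. The log2 ratio of miR-143-5p turned to 0.06 with the TMM factor of all names. That of miR-143-3p turned to -0.075 over copies of the listed sequences, whose forms differ between the libraries. With levels as shares of named miRNA reads, the log2 ratio (CD49f-positive to CD49f-negative) was 0.26 for miR-143-3p (95% interval 0.26 to 0.27) and -0.76 for miR-143-5p (-0.87 to -0.66). It was 0.56 for miR-145-3p (0.52 to 0.60) and -1.24 for miR-145-5p (-1.28 to -1.20). Called were arms of 100 or more reads over both libraries whose shares were 2-fold or more apart and whose interval excluded equal shares. By that rule miR-145-5p was lower, by 2.36-fold, and the other 3 arms were not called.

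That count stands against a background of 24.8% of the 298 measured arms called lower, 74 in number, and 2.01% called higher, 6 in number. With 1 of 4 arms called lower, the members' share was near the background. The median log2 ratio was -0.25 over the 4 arms and -0.43 over all 298. Of all measured arms 85.6% had a ratio below that of miR-143-3p, 90.9% below that of miR-145-3p, 31.5% below that of miR-143-5p and 20.5% below that of miR-145-5p.

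**Figure D2:**
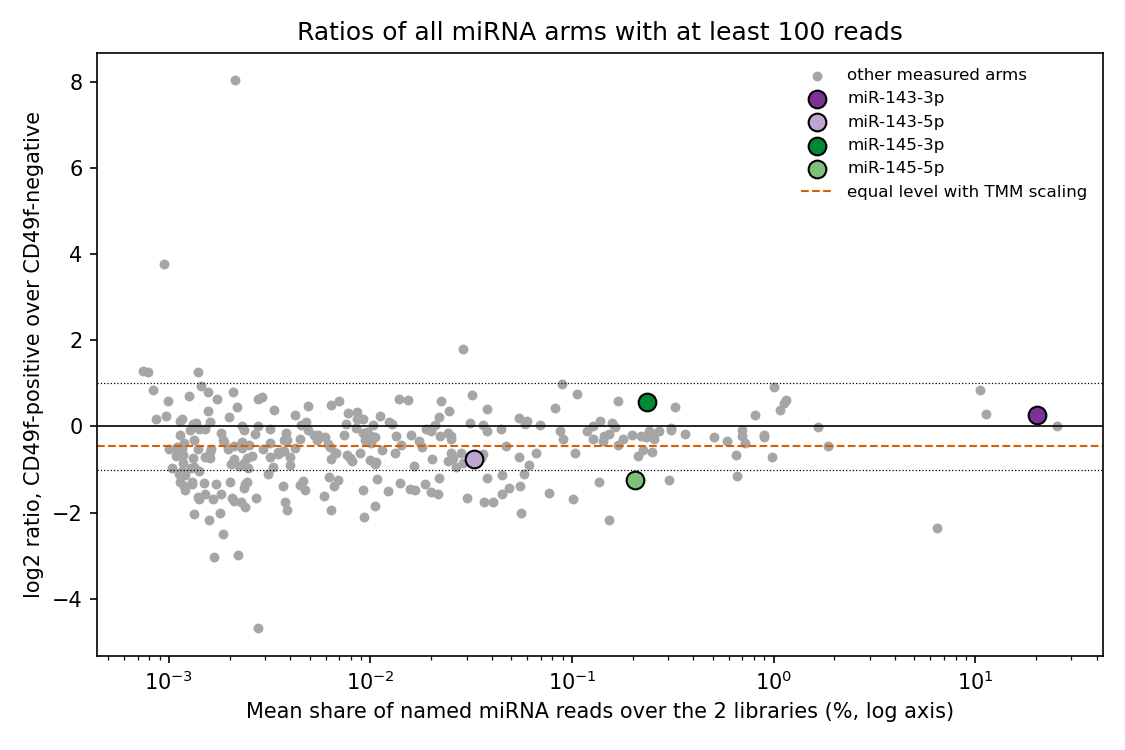
log2 ratio of the CD49f-positive to the CD49f-negative share (y axis) against the mean share of named miRNA reads (percent, log axis) for 298 arms; each point is 1 arm, dotted lines mark 2-fold and the dashed line the ratio that TMM scaling would set to equal levels. miR-143-3p (0.26) and miR-145-3p (0.56) lie above most arms and miR-145-5p (-1.24) below most.

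The sizes and calls of these ratios moved with the scaling between libraries, whose total is shared with all other miRNAs. TMM, which sets the trimmed mean of the log ratios to 0, was taken from the 592 names with at least 10 reads and raised every log2 ratio by 0.445. miR-143-3p was then at 0.71, miR-143-5p at -0.32, miR-145-3p at 1.01 and miR-145-5p at -0.79. The call of miR-145-5p was lost and miR-145-3p was called higher, against a background of 9.06% called higher and 13.4% called lower. That factor itself moved with the low counts it was taken from, between 0.26 over the 140 names with at least 1000 reads and 0.82 over all 1808 names. With that last value miR-143-3p, at 1.08, was called higher.

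The arms nearest to each member in the order of ratios were taken as most like it, a likeness that rests on 2 libraries only. Next to miR-143-3p stood let-7i-5p (0.27) and miR-99a-5p (0.28) above it and miR-365-3p (0.26) and miR-450b-3p (0.24) under it. Next to miR-143-5p stood miR-455-3p (-0.76) above it and miR-106b-5p (-0.77) under it. Next to miR-145-3p stood miR-2285o-3p (0.58) and miR-450b-5p (0.58) above it and let-7a-5p (0.53) under it. Next to miR-145-5p stood miR-378d-5p (-1.22) above it and miR-660-5p (-1.24) and miR-20a-5p (-1.24) under it. None of these stood apart from its member beyond counting error except miR-99a-5p, whose interval of 0.27 to 0.28 lies above that of miR-143-3p.

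Within a hairpin the scaling of the libraries cancels, and there the miR-145 arms changed places. The 3p arm held 69.5% of miR-145 reads in CD49f-positive cells (69.0 to 70.0), against 39.6% in CD49f-negative cells (38.8 to 40.4). There were 2.28 reads of miR-145-3p per read of miR-145-5p in CD49f-positive cells, against 0.655 in CD49f-negative cells. The odds of a read lying on the 3p arm were thus 3.48-fold higher in CD49f-positive cells (log2 1.80, exact conditional interval 1.74 to 1.86).

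miR-143 stayed on its 3p arm in both libraries. That arm held 99.89% of miR-143 reads in CD49f-positive cells, against 99.78% in CD49f-negative cells. The 5p arm held 0.109% (0.104 to 0.114) in the CD49f-positive and 0.222% (0.210 to 0.234) in the CD49f-negative library. The odds of the 3p arm were 2.04-fold higher in CD49f-positive cells (log2 1.03, 0.92 to 1.13), in the same direction as those of miR-145. Over reads with no mismatch this log2 change was 0.89, under 2-fold. Over listed sequences, whose miR-143-3p forms differ between the libraries, it was 0.69.

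The background was 63 hairpin names with at least 100 reads on each arm over both libraries. Of these 9.52% had odds of the 3p arm raised 2-fold or more in CD49f-positive cells and 7.94% had them lowered 2-fold or more. The median size of the log2 change was 0.34. Both members were among the 6 hairpins of the first kind, with 4 others. The change of miR-145 ranked 4 in size; the larger ones were those of miR-331, miR-716a and miR-716b, named here after their values were seen, each with an arm under 50 reads in at least 1 library. The more abundant arm differed between the libraries in 5 of the 63 hairpins, and miR-145 had the most reads of these 5. In percentage points its difference of 29.9 was exceeded by 1 hairpin.

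**Figure D3:**
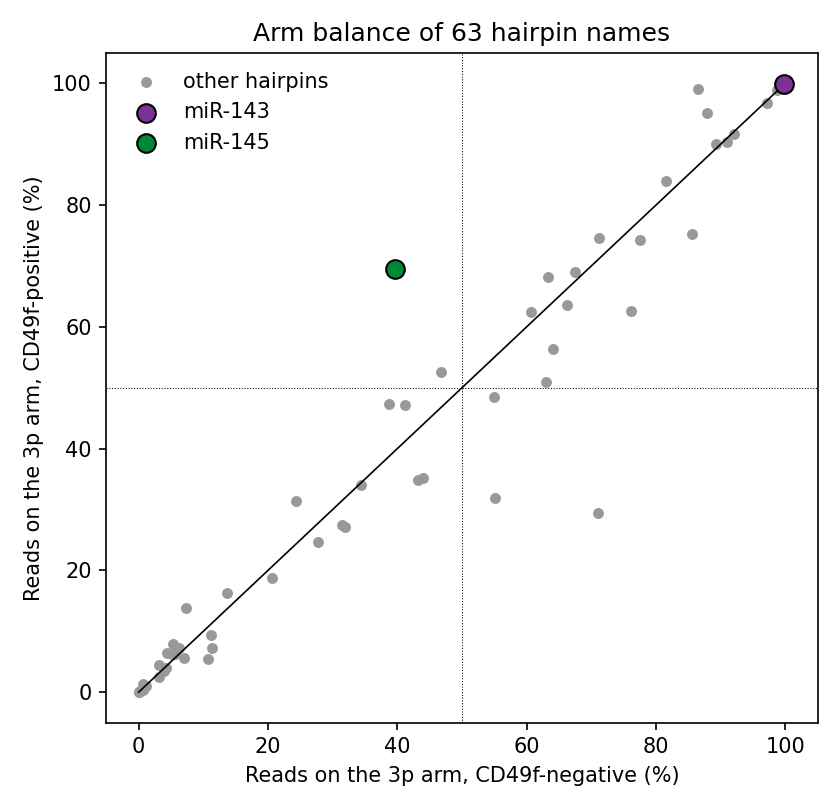
Percent of a hairpin's reads on its 3p arm in CD49f-positive cells (y axis) and CD49f-negative cells (x axis) for 63 hairpin names with at least 100 reads on each arm over both libraries; each point is 1 hairpin, the diagonal marks equal balance and dotted lines mark 50%. miR-145 lies far above the diagonal, at 69.5% in CD49f-positive and 39.6% in CD49f-negative cells, and miR-143 at the upper right corner with 99.89% in CD49f-positive and 99.78% in CD49f-negative cells.

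Summed over both arms, the 2 neighbouring hairpins had ratios of unlike size. miR-143 held 22.1% of the reads in CD49f-positive cells, against 18.5% in CD49f-negative cells, a log2 ratio of 0.26. miR-145 held 0.402% in CD49f-positive and 0.479% in CD49f-negative cells, a log2 ratio of -0.25 (-0.28 to -0.22), which turned to 0.19 with TMM. Within a library, where scaling does not enter, there were 55.0 reads of miR-143 per read of miR-145 in CD49f-positive cells, against 38.6 in CD49f-negative cells. The first ratio was 1.43-fold the second (log2 0.51, 0.48 to 0.54). Over the listed sequences alone, whose forms differ between the libraries, this log2 difference was 0.19. Its direction depended on the miR-145 arm: miR-143-3p had 180.4 reads per read of miR-145-5p in CD49f-positive cells, against 63.7 in CD49f-negative cells. Per read of miR-145-3p it had 79.1 in CD49f-positive cells, against 97.2 in CD49f-negative cells.

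The listed 3p sequence of miR-143 ended differently in the libraries. In CD49f-positive cells it was 22 bases long, with 649830 copies or 35.8% of the arm's reads. Its last base was not that of the goat hairpin, a change written G22T, with the hairpin's base first and positions counted from the 5′ end of the sequence. In CD49f-negative cells it was the 21 bases before that position, with no mismatch, and had 215703 copies or 38.2% of the arm's reads. The 22-base form made up 82.2% of all miR-143-3p reads with a mismatch in CD49f-positive cells, and the 21-base form 69.6% of those without one in CD49f-negative cells.

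The share of miR-143-3p reads without a mismatch was nearly the same, at 56.4% (56.3 to 56.5) in CD49f-positive cells, against 54.9% (54.8 to 55.0) in CD49f-negative cells. The CD49f-negative library thus had 254624 reads of this arm with a mismatch, whose sequences are not listed. How many copies of each listed form the other library held is not given in the tables, so a difference in their amounts was not measured.

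The listed sequence of miR-145-5p also differed in its end. It was 23 bases long in CD49f-positive cells, with 3337 copies or 33.2% of the arm's reads, and 21 bases long in CD49f-negative cells, with 2624 copies or 29.6%. Both matched the hairpin without a mismatch, and the longer one is the full length of the cattle miR-145 to which it was matched. miR-145-3p had 1 listed sequence of 21 bases, with 7549 copies in CD49f-positive cells, against 1497 in CD49f-negative cells. miR-143-5p likewise had 1 listed sequence of 21 bases, with 1083 copies in the CD49f-positive and 580 in the CD49f-negative library.

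Over 230 arms whose main entry was a known hairpin in both libraries, the listed sequence was the same in 81.7%, longer in CD49f-positive cells in 9.13% and shorter in 5.65%. A length at least 2 bases longer in CD49f-positive cells, as for miR-145-5p, was found for 4 arms, and one at least 2 bases shorter for 9. A listed sequence whose only mismatch was at its last base, as for miR-143-3p, was found for 15 arms in CD49f-positive and 8 in CD49f-negative cells, and that base was T in 8 arms in the CD49f-positive library, against 4 in the CD49f-negative one.

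The other 3 arms had a larger share of reads without a mismatch than miR-143-3p in each library. The share was 88.6% in CD49f-positive and 80.7% in CD49f-negative cells for miR-145-5p. For miR-145-3p it was 84.3% in CD49f-positive and 77.5% in CD49f-negative cells, and for miR-143-5p 73.0% in CD49f-positive and 64.8% in CD49f-negative cells. All 3 arms thus had a larger share of mismatched reads in CD49f-negative cells, as did miR-143-3p by a smaller margin. The same was seen over all arms with at least 100 reads in a library, with a median share of 78.7% over 245 arms in CD49f-positive cells, against 73.0% over 206 in CD49f-negative cells.

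**Figure D4:**
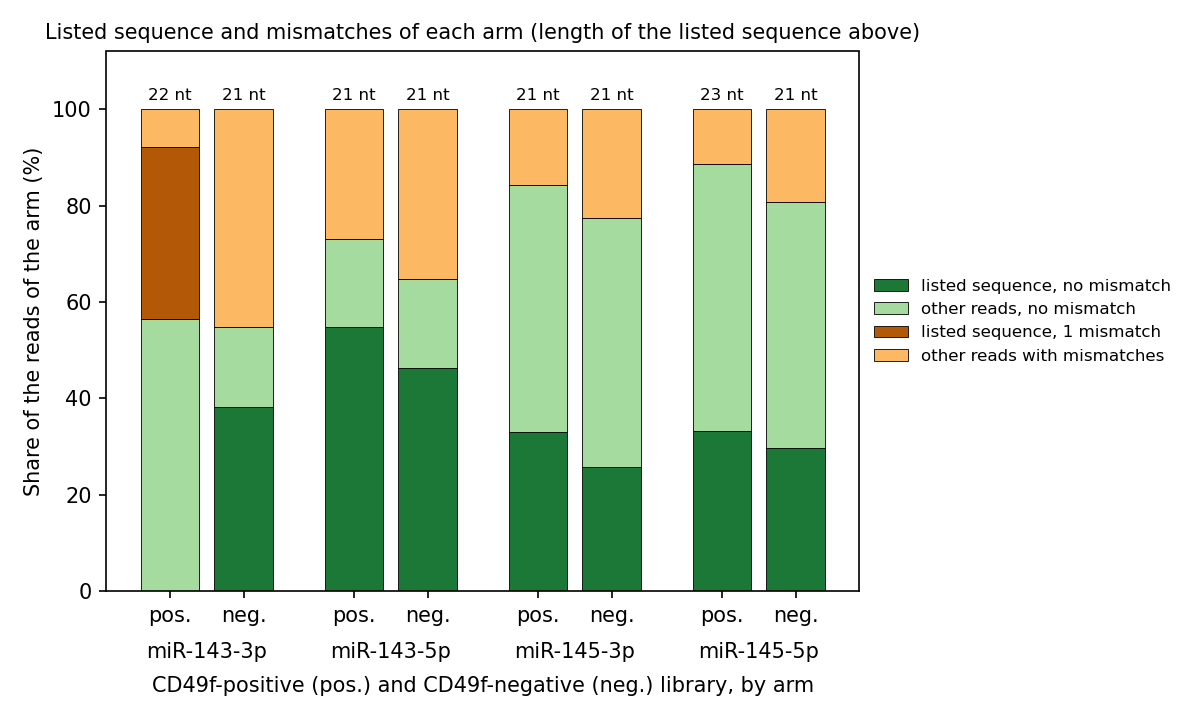
Share of each arm's reads (percent) made up by the listed sequence (dark) and by other reads (light), without a mismatch (green) and with one or more (orange), in the CD49f-positive (left bar) and CD49f-negative (right bar) library; numbers above the bars are lengths of the listed sequence in bases. The listed miR-143-3p sequence of CD49f-positive cells is the single one with a mismatch, at 35.8% of that arm's reads.

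A small remainder of reads carried the names from entries off the 2 hairpins. For miR-145-5p these were 36 reads in 6 entries in CD49f-positive cells, against 29 reads in 5 entries in CD49f-negative cells, all but 1 entry matched to platypus miR-145. All had a mismatch, and C20A, counted from the 5′ end of the read with the hairpin's base first, was the sole difference from the goat hairpin in 2 of these entries in CD49f-positive and 4 in CD49f-negative cells. For miR-143-3p they were 4 reads in 6 entries of 29 or 30 bases in CD49f-positive cells, and there were none in CD49f-negative cells, which allows up to 3 reads. The like-named miR-145b, 1 read in each library, was not counted as a member.

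Lists of miRNAs of other cell types were set beside the members to describe which cells the libraries may hold; their part in the results was not tested. The heart and skeletal muscle list held miR-1, miR-133a, miR-133b, miR-206, miR-208 and miR-499. It summed to 0.0136% of the reads in CD49f-positive and 0.0183% in CD49f-negative cells, far under miR-143-3p. The list does not measure contractile smooth muscle. All 6 of its names were found, 3 of 8 arms were measured, and miR-208 was at 0 reads in the CD49f-positive and 1 in the CD49f-negative library. miR-133a-3p had 691.3 CD49f-positive and 320 CD49f-negative reads (log2 ratio -0.31). Of the 3 arms 1 was called, miR-1-3p, which was lower (-1.10). The list's median log2 ratio was -0.31, and 0.14 with TMM.

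miRNAs of fibroblasts and mesenchyme, which share that origin with smooth muscle, summed to 1.46% in CD49f-positive and 1.68% in CD49f-negative cells. Of these sums miR-27b-3p alone made up 0.642% in CD49f-positive and 0.748% in CD49f-negative cells. The list held miR-27b, miR-23b, miR-152, miR-214, miR-199a and miR-199b. The like-named miR-199c-3p, named here after its value was seen, was not in the list. Its mean share over the libraries was 0.269% and its log2 ratio -0.11. Of the list's 12 arms 8 were measured, 1 was called lower and 0 higher. The median log2 ratio of the list was -0.19, against -0.43 over all 298 measured arms. With TMM these medians were 0.26 and 0.017. The most abundant, miR-27b-3p, was at -0.22 and miR-199b-5p at -0.19, below miR-143-3p and miR-145-3p and above both 5p arms.

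The larger gap lay in the meiotic and post-meiotic germ cell list of miR-34b, miR-34c and the miR-449 family, with 2.25% of the reads in CD49f-positive and 11.4% in CD49f-negative cells, and 7 of 7 measured arms called lower. Because shares sum to the whole, that list bears on all others. With its reads left out of the totals, an alternative added after the values were seen, miR-143-3p held 22.6% in CD49f-positive and 20.8% in CD49f-negative cells and its log2 ratio was 0.12. The ratio of miR-145-3p was then 0.42 and that of miR-145-5p -1.38, so no member changed direction or call.

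Endothelial miR-126 and miR-139 summed to 1.44% in CD49f-positive and 0.757% in CD49f-negative cells, with 3 of 4 arms measured and none called. Red blood cell miRNAs summed to 0.296% in CD49f-positive and 0.372% in CD49f-negative cells, with 3 of 6 arms measured and none called. Sertoli cell miR-202 summed to 0.0320% in CD49f-positive and 0.0823% in CD49f-negative cells, with 1 of 2 arms called lower. White blood cell miRNAs summed to 0.0197% in CD49f-positive and 0.0248% in CD49f-negative cells, with 4 of 8 arms measured and none called. Epithelial ones summed to 0.00316% in CD49f-positive and 0.00933% in CD49f-negative cells, with 1 of 8 arms measured and called lower, and miR-205 of that list had no entry. With TMM the lower calls of the muscle, mesenchyme and Sertoli lists were lost, while 2 endothelial arms and 1 white blood cell arm were called higher. That white blood cell arm was miR-155-5p, at 1.04, while the median log2 ratio of its list with TMM was -0.31.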

How the data were processed

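Small RNA libraries were prepared with the Illumina TruSeq kit, per the labels' protocols. The authors matched reads to mammalian miRNAs in miRBase, a goat genome and expressed sequences, per the column description deposited with the tables. The aligner, its settings and the miRBase and genome versions were not given in the sources used here. For each arm of a hairpin the authors deposited expected counts of reads, with reads that fit several hairpins split between them. Copies of the listed sequence are whole counts, per the file headers. Hairpin GC is a percent and folding energy a score in kcal/mol, both deposited by the authors and not normalized.

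Reads were summed by name and arm, and a name without an arm took the arm of most of its reads. Unnamed entries (0.555% and 0.611% of listed reads in CD49f-positive and CD49f-negative cells) were left out. Ratios used shares of named reads with 0.5 reads added. Intervals at 95% use counts rounded to whole reads. Named were all member arms, some of their 3 nearest arms by ratio on each side and up to 2 arms of each cell type list. The members and lists were chosen with earlier results of these data known. The alternatives were TMM (edgeR 4.0.16) and median-of-ratios (DESeq2 1.42.0) scaling, other totals, minimums, folds and priors, and narrower sets of reads. Python 3.11.15, SciPy 1.17.1, pandas 2.3.3 and R 4.3.3 were used.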

Additional observations from a re-analysis of the deposited data

How the results depend on the processing

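No paired analysis was possible because each group had 1 library. The scarcest member arm had 1255 reads in its shallower library, which sets the counting error. The spread between replicates was not measured. The main log2 ratios are 0.26 (miR-143-3p), -0.76 (miR-143-5p), 0.56 (miR-145-3p) and -1.24 (miR-145-5p), an order kept in what follows. TMM gave 0.71, -0.32, 1.01 and -0.79. Median-of-ratios factors gave 0.86, -0.16, 1.16 and -0.64. Totals lacking the 10 most abundant miRNAs gave 0.55, -0.48, 0.84 and -0.96. Alternatives added after the values were seen gave 1.08, 0.057, 1.38 and -0.42 with TMM factors from all names, 0.60, -0.42, 0.90 and -0.90 from names with at least 100 reads, and 0.52, -0.51, 0.82 and -0.98 from names with at least 1000 reads. Without the meiotic and post-meiotic list they were 0.12, -0.90, 0.42 and -1.38. The lower call of miR-145-5p was lost in all of these but the last. miR-145-3p was called higher by TMM, by median-of-ratios factors and with TMM factors from all names. miR-143-3p was called higher only with TMM factors from all names. Over reads with no mismatch the ratios were 0.23 for miR-143-3p, 0.61 for miR-145-3p and -1.18 for miR-145-5p. Over copies of the listed sequence they were -0.075, 0.67 and -1.31, so that of miR-143-3p, which was not called, changed sign; each copy count is repeated at every hairpin it fits, and the listed forms differ between the libraries. Known hairpins alone gave 0.26 for miR-143-3p. A prior of 5 reads moved no member ratio beyond its interval.

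Arms called higher numbered 6 in the main setting, 27 by TMM, 34 by median-of-ratios factors and 15 when totals lacked the 10 most abundant miRNAs. They numbered 49, 17 and 14 with TMM factors from all names and from those with at least 100 and 1000 reads, 2 at known hairpins, 10 with a minimum of 10 reads, 24 at 1.5-fold and 2 at 4-fold. Arms called lower numbered 74, and 40 by TMM, 28 by median-of-ratios factors, 15 and 49 with TMM factors from all names and from those with at least 100 reads, 158 with a minimum of 10 reads, 127 at 1.5-fold and 11 at 4-fold.

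The arm change of miR-145 was kept in every set of reads tried, but these sets overlap and come from the same 2 libraries. The 3p arm of miR-145 held 68.5% in CD49f-positive and 38.6% in CD49f-negative cells over reads with no mismatch. Over listed sequences it held 69.0% in CD49f-positive and 36.0% in CD49f-negative cells, a log2 change of odds of 1.98. That value compares unlike forms, because the listed miR-145-5p sequence had 23 bases in CD49f-positive and 21 in CD49f-negative cells. The 3p arm of miR-143 held 99.86% in CD49f-positive and 99.74% in CD49f-negative cells over reads with no mismatch (log2 change 0.89), and 99.83% in CD49f-positive and 99.73% in CD49f-negative cells over listed sequences (0.69), both under 2-fold. Reads of miR-143 per read of miR-145 numbered 36.3 in CD49f-positive and 26.7 in CD49f-negative cells over reads with no mismatch (log2 difference 0.44), and 59.5 in CD49f-positive and 52.1 in CD49f-negative cells over listed sequences (0.19). The cause of these differences was not tested; a scaling factor moves all ratios alike by construction.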
